A study of Mus musculus with 6 samples.

Results

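The proprotein convertases are a family of 6 genes here, Furin, Pcsk1, Pcsk4, Pcsk5, Pcsk6 and Pcsk7, of 19938 genes that the arrays measured under 1 symbol. The family was selected on its log2 values, because Furin was high and Pcsk1 low in IL-12 primed compared with IL-2 primed cells. The difference between these cells is therefore described for the 6 genes without a test. Each member had 1 probe set, and that probe set gave its value. The cells were CD8+ T cells from spleens of female C57BL/6 mice carrying the Pmel-1 transgenic T cell receptor, which recognises the melanoma antigen gp100, and all groups shared this genotype. IL-12 primed cells had gp100 for 4 days and IL-12 for 6 days. IL-2 primed cells had the same antigen for 4 days and IL-2 for 6 days. Naive cells were collected fresh and sorted for CD8 and Thy1.1, whereas no sort is named for the primed cells. The stated aim was to find genes and pathways that T cells need for anti-tumour activity. Each group had 2 arrays, and no label says that they came from separate mice or cultures, so p-values may measure technical spread only.

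Proprotein convertases are calcium-dependent serine proteases related to subtilisin that cut precursor proteins after basic residues as these pass through the secretory pathway. Furin cycles between the trans-Golgi network and the cell surface and acts in most cells. The Pcsk1 product works mainly in the dense-core granules of endocrine and nerve cells. In T cells, furin is known as a gene induced by IL-12 through STAT4 and as a processor of the transforming growth factor beta 1 precursor.

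The promoter windows of Furin and Pcsk1 are shown because these members differed most between IL-12 primed and other cells. They come from RefSeq (GRCm38.p6) and run from 250 bases before to 50 bases after an annotated start. Furin has 2 such windows on the minus strand, an upstream one at chr7:80405387-80405686 and a downstream one at chr7:80402763-80403062, and Pcsk1 has 1 on the plus strand at chr13:75089607-75089906. Capitals mark TGACGTCA, the palindromic cAMP response element, or its 6-base core TGACGT, searched on both strands, so that each full element also holds the core.
Furin upstream: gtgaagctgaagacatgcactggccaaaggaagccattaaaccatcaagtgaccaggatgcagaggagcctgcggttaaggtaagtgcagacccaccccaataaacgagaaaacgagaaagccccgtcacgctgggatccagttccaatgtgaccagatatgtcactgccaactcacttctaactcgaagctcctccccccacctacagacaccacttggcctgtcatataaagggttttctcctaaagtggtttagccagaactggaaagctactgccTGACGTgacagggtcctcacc
Furin downstream: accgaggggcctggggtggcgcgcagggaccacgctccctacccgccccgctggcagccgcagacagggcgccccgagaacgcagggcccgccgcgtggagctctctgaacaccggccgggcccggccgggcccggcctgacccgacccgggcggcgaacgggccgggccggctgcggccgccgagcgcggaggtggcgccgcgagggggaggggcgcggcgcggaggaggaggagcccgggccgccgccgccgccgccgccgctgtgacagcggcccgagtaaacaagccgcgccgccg
Pcsk1: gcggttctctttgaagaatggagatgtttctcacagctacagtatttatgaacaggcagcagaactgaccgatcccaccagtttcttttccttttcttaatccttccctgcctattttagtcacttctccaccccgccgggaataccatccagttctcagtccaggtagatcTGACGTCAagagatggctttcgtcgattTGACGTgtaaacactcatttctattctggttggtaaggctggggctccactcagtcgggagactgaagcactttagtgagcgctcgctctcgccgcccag
The Pcsk1 window held 1 full element, which began 78 bases before the start, and a further core that began 50 bases before it. Cyclic AMP is a known inducer of this promoter in endocrine cells. The full element was present in 1.79% of 32851 windows of the same length and the core in 7.51%. The upstream Furin window held 1 core, beginning at base 30 after the start, and the downstream window held none. The STAT motif TTCNNNGAA, present in 8.30% of all windows, and the T-box motif AGGTGTGA, in 1.27%, were not found in any window of a member. The downstream Furin window was 82.3% G and C, higher than 99.6% of all windows, against 51.3% in the upstream window and 49.3% in that of Pcsk1. The windows of Pcsk5, Pcsk6 and Pcsk7 were 65.7%, 81.7% and 78.7% G and C and held none of the motifs. No promoter window was available for Pcsk4.

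Furin (probe set 10564960) read 12.38 and 12.15 with IL-12, 9.48 and 9.49 with IL-2 and 9.42 and 9.61 in naive cells, as log2 RMA values. IL-12 primed cells stood apart, with both of their arrays above all others, and IL-2 primed and naive cells overlapped. The level of IL-12 primed cells was 6.85-fold that of IL-2 primed cells, a log2 difference of 2.78 ± 0.12 (SE of the limma fit, n = 2 arrays per group). In bulk RNA, fewer cells of a type and less RNA per cell cannot be told apart. The difference helped to choose the gene and ranked 12th among the rises of 11147 tested genes.

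**Figure D1:**
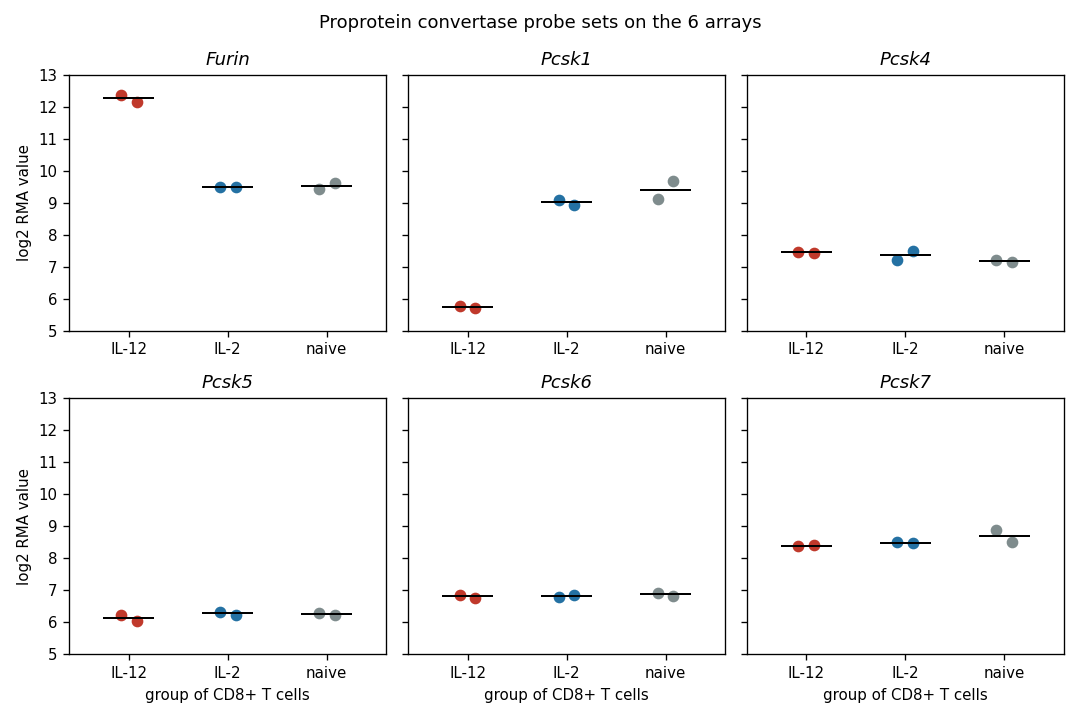
Log2 RMA value (vertical axis) of each convertase probe set on the 2 arrays of IL-12 primed, IL-2 primed and naive cells. Points are arrays and lines are group means. Furin is high and Pcsk1 low on both IL-12 arrays, while the other members span at most 0.52 over the 6 arrays.

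Pcsk1 (probe set 10406229) showed the opposite order. It read 5.78 and 5.70 with IL-12, 9.08 and 8.94 with IL-2 and 9.13 and 9.67 in naive cells. Both IL-12 arrays were again apart from the other 4, now below them. The level was 9.63-fold lower in IL-12 primed than in IL-2 primed cells, a log2 difference of -3.27 ± 0.17 (SE, n = 2 arrays per group). The IL-12 readings lay between the readings of probe sets for genes that female cells lack. Of 7 measured Y-linked probe sets, 6 read between 2.88 and 5.002, and that of Sry read between 7.53 and 8.13. The drop of Pcsk1 may therefore be understated, because a probe set near its background cannot read lower.

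Against naive cells, IL-12 primed cells had more Furin and less Pcsk1 RNA, and IL-2 primed cells passed the test for neither. Furin was 6.73-fold higher in IL-12 primed than in naive cells (log2 difference 2.75 ± 0.12, limma adjusted p = 2.91e-07). Pcsk1 was 12.6-fold lower (log2 difference -3.66 ± 0.17, limma adjusted p = 3.77e-07). These tests share the IL-12 arrays with the contrast that chose the pair. In size, Furin ranked 205th among the rises and Pcsk1 17th among the falls of this comparison. Of 5 tested members 1 rose and 1 fell between IL-12 primed and naive cells, beside 57.9% of all 11147 tested genes, 31.2% higher and 26.7% lower. Between IL-2 primed and naive cells, 0 of 5 members passed limma's test and 1 had an unadjusted p under 0.05, beside 45.7% of all tested genes that passed, 25.8% higher and 19.9% lower. The arrays did not overlap for Furin and Pcsk4 (higher) and for Pcsk1 and Pcsk7 (lower) between IL-12 primed and naive cells, beside 42.5% of all tested genes higher and 36.7% lower. Between IL-2 primed and naive cells this held for Pcsk4 (higher) and Pcsk1 (lower), beside 38.7% and 35.2%. Furin differed by -0.03 ± 0.12 between IL-2 primed and naive cells on the log2 scale (limma adjusted p = 0.881). For Pcsk1 the difference was -0.39 ± 0.17 (limma adjusted p = 0.087), with both IL-2 arrays below both naive arrays. The naive arrays of Pcsk1 lay 0.54 apart, and without naive replicate 1 the difference was -0.66 and passed the test (limma adjusted p = 0.00329). Without naive replicate 2 it was -0.12 (limma adjusted p = 0.396). It was -0.49 and passed after quantile normalization (limma adjusted p = 0.0268), and was -0.29 and did not pass with each array centred on its median (limma adjusted p = 0.244). For Pcsk1, IL-12 primed cells were lowest, and the order of IL-2 primed and naive cells was not settled beyond their spread. For Furin, IL-12 primed cells were highest and the other groups did not differ beyond their spread. The 2 naive-based comparisons share the naive arrays.

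Pcsk7 is the most widely expressed convertase after furin and, like it, resides in the trans-Golgi network. Its probe set (10584954) read 8.38 and 8.41 with IL-12, 8.51 and 8.47 with IL-2 and 8.90 and 8.50 in naive cells. Its order of levels was naive, IL-2 primed, IL-12 primed. Naive replicate 1 stood above the other arrays, and the IL-2 arrays overlapped the naive range. The log2 difference from naive cells was -0.30 ± 0.14 in IL-12 primed cells (limma adjusted p = 0.0851) and -0.21 ± 0.14 in IL-2 primed cells (limma adjusted p = 0.249). Without naive replicate 2 both passed, at -0.50 (limma adjusted p = 0.0035) and -0.40 (limma adjusted p = 0.0118). Without naive replicate 1 they were -0.11 (limma adjusted p = 0.395) and -0.01 (limma adjusted p = 0.962), so the size of both rests on that array. Pcsk7 differed by -0.10 ± 0.14 between IL-12 primed and IL-2 primed cells. In the gene table Pcsk7 overlaps Rnf214, on the other strand, and Tagln, and whether the probes of the Pcsk7 set lie in the shared stretch was not tested. Rnf214 differed from naive cells by -0.46 with IL-12 (limma adjusted p = 0.00654) and by 0.05 with IL-2 (limma adjusted p = 0.77).

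Pcsk4, a convertase of germ cells needed for male fertility, read 7.45 and 7.44 with IL-12, 7.22 and 7.49 with IL-2 and 7.20 and 7.16 in naive cells. The IL-12 arrays lay within the IL-2 range and above both naive arrays. Its difference of 0.26 ± 0.12 between IL-12 primed and naive cells did not pass (limma adjusted p = 0.0846). With each array centred on its median it was 0.38 and passed (limma adjusted p = 0.0274). That centring moves every log2 difference between IL-12 primed and naive cells by 0.12. Pcsk6, a convertase that matures ligands of the Nodal pathway in the embryo, read from 6.76 to 6.91 over all arrays. Its groups overlapped in every comparison, and its limma adjusted p was 0.623 for IL-12 primed and 0.68 for IL-2 primed against naive cells. Pcsk5, a convertase of growth and differentiation factors such as Gdf11, read from 6.03 to 6.34. It was not tested, since no array reached the filter of 6.83, the median of all values. The values of Pcsk4, Pcsk5 and Pcsk6 lay at or below those of the Sry probe set, so expression of these genes could not be told from background.

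IL-12 arrays lay above both IL-2 arrays for Furin among the 6 members, and below both for Pcsk1, Pcsk5 and Pcsk7. Such a separation occurred upward for 36.1% and downward for 33.4% of all tested genes. For 4 members the difference of means was at most 0.16 on the log2 scale. Furin and Pcsk1, the 2 others, differed by far more and in opposite directions.

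Markers of other cells moved between the groups as well. The summed level of 9 measured B cell markers, on the log2 scale, was 11.22 and 11.23 with IL-12, 10.16 and 10.15 with IL-2 and 12.32 and 12.35 in naive cells. That of 10 myeloid and dendritic markers was 9.79 and 9.84, 9.55 and 9.34, and 11.22 and 11.36 on the IL-12, IL-2 and naive arrays. Both sums were highest in naive and lowest in IL-2 primed cells. The summed level of 7 measured CD8 T cell markers was 15.09 and 15.06 with IL-12, 15.40 and 15.44 with IL-2 and 15.37 and 15.52 in naive cells. It was lowest on both IL-12 arrays, where 4 of the 7 fell against naive and 3 against IL-2 primed cells. Of all tested genes 26.7% and 11.0% fell in these comparisons. Natural killer cell markers gave sums of 12.39 and 12.63 in IL-12 primed, 10.62 and 9.83 in IL-2 primed and 9.30 and 8.44 in naive cells. Of these 5 markers, Gzma, which T cells also express, alone passed the filter, and the defining marker Ncr1 read from 5.31 to 6.00. For CD4 T cell markers the sums were 9.52 and 9.44 with IL-12, 9.62 and 9.70 with IL-2 and 8.75 and 8.76 in naive cells. Of 2 tested CD4 markers, 1 rose against naive cells in each primed group. Beside this, 31.2% of all tested genes rose with IL-12 and 25.8% with IL-2. For 4 erythroid and platelet markers the sums ran from 8.34 to 8.81. The part of other cells in the convertase values was not tested.

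Few genes lay near Furin or Pcsk1 when values on the 6 arrays were compared. Likeness was the root mean square distance between log2 values after each gene's own mean was subtracted, over 10693 named genes. Values were not scaled, so the distance depends on the size of a change as well as on its pattern. A gene with a large change therefore tends to have few genes near it. Nearest to Furin was Cysltr2, a receptor for cysteinyl leukotrienes, at 0.10, followed by Eps8, an actin regulator, at 0.13 and Ermn at 0.14. Onecut2, a transcription factor, and Timp3, an inhibitor of metalloproteases, lay at 0.20 and 0.21. These 5 were also all the genes within a distance of 0.25, a limit chosen after the values were seen. Cysltr2 read 8.97 and 8.72 with IL-12, 5.94 and 6.01 with IL-2 and 5.75 and 5.93 in naive cells. Nearest to Pcsk1 was Slc28a2b, at 0.31, which read 8.01 and 7.55 with IL-12, 11.17 and 11.15 with IL-2 and 11.70 and 11.26 in naive cells. Next came Il6ra, the IL-6 receptor alpha chain, at 0.40, and the sialyltransferase gene St6gal1 at 0.49. Inpp4b, a lipid phosphatase, lay at 0.50 and Eya2 at 0.58. Pcsk7, whose values hardly varied, had 4225 genes within 0.25, with Rpl24, Scarb2, Arhgef2, Cop1 and Sugp2 nearest.

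**Figure D2:**
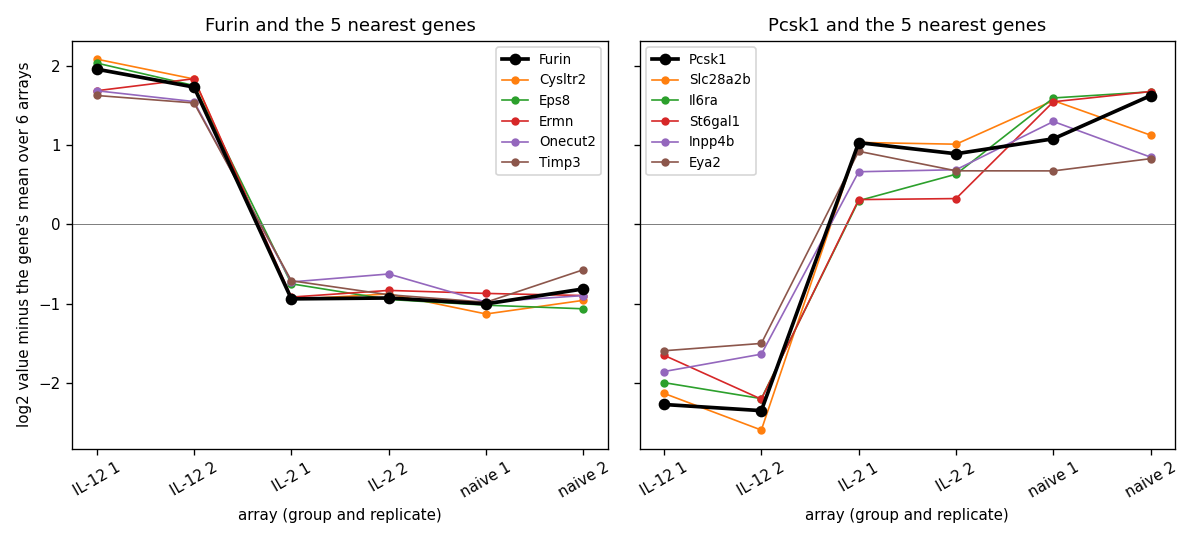
Log2 value minus each gene's mean over 6 arrays (vertical axis) on each array (horizontal axis) for Furin (left) and Pcsk1 (right), in black, with the 5 nearest genes in colour. The root mean square distance is at most 0.21 for the genes near Furin and 0.31 to 0.58 for those near Pcsk1.

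The genes next to Furin on the chromosome were read from the RefSeq table of GRCm38.p6 and were not part of the choice of members. Fes, which encodes a tyrosine kinase of blood cells, adjoins Furin on the same strand, in the direction of transcription, without overlap. It read 8.99 and 9.01 with IL-12, 7.004 and 7.23 with IL-2 and 7.11 and 7.10 in naive cells. IL-12 primed cells were above both other groups, which overlapped, as for Furin. In those 2 groups Fes read below the Sry probe set (7.53 to 8.13), so its expression there could not be told from background. Fes was higher in IL-12 primed than in IL-2 primed cells by 1.88 ± 0.11 (limma adjusted p = 2.28e-05) and than in naive cells by 1.90 ± 0.11 (limma adjusted p = 1.76e-06), both on the log2 scale. Between IL-2 primed and naive cells its difference was 0.02 ± 0.11 (limma adjusted p = 0.925). Of all tested genes 20.8% passed between IL-12 primed and IL-2 primed cells, 9.82% higher and 11.0% lower. Blm, on the other side of Furin, encodes a DNA helicase and was higher in both primed groups than in naive cells, by 2.17 ± 0.11 with IL-12 (limma adjusted p = 5.33e-07) and by 1.34 ± 0.11 with IL-2 (limma adjusted p = 1.6e-05). Between IL-12 primed and IL-2 primed cells Blm was higher by 0.83 ± 0.11 (limma adjusted p = 0.00104). Man2a2 and Crtc3, one gene further out, were lower in both primed groups than in naive cells. Their log2 differences were -1.004 and -1.01 with IL-12 and -0.715 and -0.62 with IL-2. Between IL-12 primed and IL-2 primed cells Man2a2 did not pass (-0.29, limma adjusted p = 0.13). Crtc3 passed at -0.39 (limma adjusted p = 0.0278), a call not kept with any 1 of the 4 primed arrays left out (0.0801 to 0.185). Cast and Ell2, the neighbours of Pcsk1, did not pass between IL-12 primed and IL-2 primed cells (limma adjusted p = 0.132 and 0.431), nor did Erap1 and Glrx beyond them (0.409 and 0.619).

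**Figure D3:**
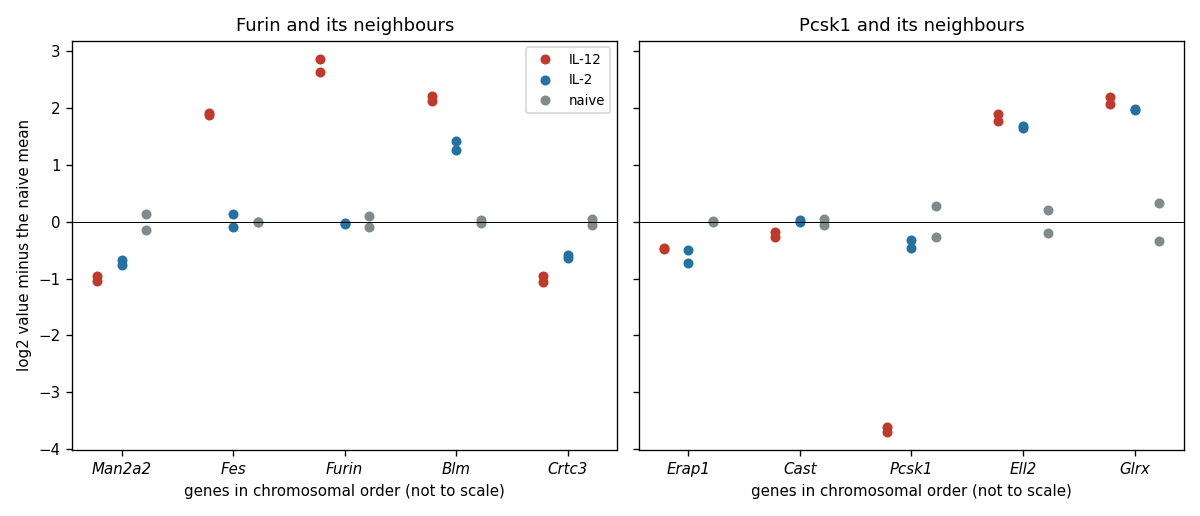
Log2 value of each array minus the naive mean (vertical axis) for Furin (left) and Pcsk1 (right) and the 2 protein-coding genes on each side, in chromosomal order and not to scale. Fes follows Furin, with IL-12 arrays near 1.90 and IL-2 arrays near 0, and no neighbour of Pcsk1 passed between the primed groups.

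Genes that act with the convertases were examined next. Of 13 other convertases and regulators, 10 were measured and 9 tested. In IL-12 primed against IL-2 primed cells 1 rose and 1 fell, beside 9.82% of all tested genes higher and 11.0% lower, with a median log2 difference of 0.10 beside 0.02 for all tested genes. Against naive cells 2 rose and 2 fell with IL-12, beside 31.2% and 26.7%, and 1 rose and 5 fell with IL-2, beside 25.8% and 19.9%. Gbp5, an interferon-inducible GTPase whose human protein inhibits furin, read 9.50 and 9.25 with IL-12, 7.32 and 7.44 with IL-2 and 8.05 and 8.01 in naive cells. It was highest in IL-12 primed and lowest in IL-2 primed cells, with no overlap. Its IL-2 readings lay below those of the Sry probe set and its naive readings within their range. The difference between IL-12 primed and IL-2 primed cells was 3.98-fold (log2 difference 1.99 ± 0.12, limma adjusted p = 2.34e-05). Pacs1, a sorting protein that returns furin to the trans-Golgi network, was lower than in naive cells, with a log2 difference of -1.27 ± 0.10 with IL-12 (limma adjusted p = 9.9e-06) and -0.83 ± 0.10 with IL-2 (limma adjusted p = 0.000223). Its log2 difference of -0.44 between IL-12 primed and IL-2 primed cells (limma adjusted p = 0.0148) was lost without any 1 of the 4 primed arrays (0.0937 and 0.122 without IL-2 replicate 1 and 2, 0.061 and 0.113 without IL-12 replicate 1 and 2).

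Mbtps1, the site-1 protease of the same wider family, which cleaves the sterol regulatory factors, read 9.88 and 9.80 with IL-12, 10.21 and 10.08 with IL-2 and 10.85 and 10.71 in naive cells. Its log2 difference from naive cells was -0.94 with IL-12 (limma adjusted p = 0.000107) and -0.64 with IL-2 (limma adjusted p = 0.0016). Ap1s1, a subunit of the adaptor that carries cargo from the trans-Golgi network, rose by 1.26 ± 0.17 with IL-12 (limma adjusted p = 0.000315) and by 1.28 ± 0.17 with IL-2 (limma adjusted p = 0.000478) against naive cells. The other adaptor subunits, Ap1g1 and Ap1m1, did not pass in any comparison, with log2 differences from -0.32 to 0.34. The difference of -0.32 was that of Ap1g1 between IL-2 primed and naive cells (limma adjusted p = 0.0521), which passed after quantile normalization (0.0137) and without naive replicate 1 (0.0111). Ap1m1 passed against naive cells without naive replicate 2, at 0.47 with IL-12 (limma adjusted p = 0.00644) and 0.52 with IL-2 (limma adjusted p = 0.00547). Pcsk1n, an inhibitor of the Pcsk1 product, read from 7.50 to 7.80 over all arrays and passed in no comparison. Scg5, the chaperone of a related convertase, read from 6.46 to 6.97, below the Sry probe set, and could not be told from background. It fell in IL-2 primed against naive cells, by a log2 difference of -0.37 (limma adjusted p = 0.0272), a call lost without naive replicate 2 (0.0544) or IL-2 replicate 1 (0.22). Serpinb8, whose human protein inhibits furin, read from 5.27 to 5.60 and was not tested. Flna, an actin cross-linker that tethers furin at the cell surface, read from 11.48 to 11.95. It too fell in IL-2 primed against naive cells, by -0.34 (limma adjusted p = 0.0299). That call was lost without naive replicate 1 (0.0648), without IL-2 replicate 2 (0.231), without either IL-12 array (0.0531) and with median centring (0.132).

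Of 18 prohormone genes and genes of downstream peptide processing, all were measured and 5 tested. Penk read from 6.29 to 6.68 and Pomc from 6.53 to 6.78, and neither of these prohormone genes passed the filter. Cpe, the carboxypeptidase that trims hormones after Pcsk1 has cut them, read from 5.21 to 5.59 and was not tested either. Cpd, the carboxypeptidase that removes basic residues after furin has cut, read 6.60 and 6.71 with IL-12, 8.16 and 8.23 with IL-2 and 5.92 and 6.28 in naive cells. IL-2 primed cells held the high values, and the 3 groups did not overlap. The IL-12 and naive readings of Cpd lay below the Sry probe set (7.53 to 8.13), so its expression there could not be told from background. Cpd was 2.90-fold lower in IL-12 primed than in IL-2 primed cells (limma adjusted p = 0.000134) and 4.26-fold higher in IL-2 primed than in naive cells (limma adjusted p = 4.1e-06). Furin and Cpd were thus high in different primed cells. Pam, which amidates peptides, was lower than in naive cells, by a log2 difference of -1.27 with IL-12 (limma adjusted p = 5.61e-05) and -1.14 with IL-2 (limma adjusted p = 0.000178). Its readings in both primed groups lay below the Sry probe set.

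Most precursors of growth factors and ligands were below the filter, and 5 of 20 measured genes were tested. Tgfb1, which encodes the furin substrate transforming growth factor beta 1, read 11.11 and 10.94 with IL-12, 11.17 and 11.15 with IL-2 and 10.87 and 10.96 in naive cells. The IL-2 arrays were above the other 4, and IL-12 primed and naive cells overlapped. The log2 difference between IL-12 primed and IL-2 primed cells was -0.13 ± 0.11 (limma adjusted p = 0.43). Against naive cells it was 0.12 ± 0.11 with IL-12 (limma adjusted p = 0.386) and 0.25 ± 0.11 with IL-2 (limma adjusted p = 0.0924), the second of which passed with arrays centred on their medians (0.34, limma adjusted p = 0.0468). Igf1, a growth factor made by macrophages among other cells, fell against naive cells, by a log2 difference of -1.75 with IL-12 (limma adjusted p = 5.07e-06) and -2.01 with IL-2 (limma adjusted p = 2.92e-06). In both primed groups Igf1 read below the Sry probe set. The myeloid marker Lyz2 fell beside Igf1, reading 5.84 and 5.64 with IL-12, 5.65 and 5.20 with IL-2 and 9.31 and 9.35 in naive cells. Of 7 tested myeloid and dendritic markers, 5 fell and 1 rose with IL-12 against naive cells, beside 26.7% and 31.2% of all tested genes. With IL-2, 6 fell and 0 rose, beside 19.9% and 25.8%. The marker that rose was Itgam, which read 7.41 and 7.63 with IL-12 and 6.19 and 6.44 in naive cells. The part of myeloid cells in the fall of Igf1 was not tested.

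Most tested receptors and adhesion molecules that are made as precursors were lower in primed than in naive cells. Of 14 tested genes, 11 fell and 1 rose in IL-12 primed against naive cells, beside 26.7% of all tested genes lower and 31.2% higher. In IL-2 primed against naive cells 8 fell and 2 rose, beside 19.9% and 25.8%. In IL-12 primed against IL-2 primed cells 7 fell and 0 rose by limma, with 1 rise at an unadjusted p under 0.05, beside 11.0% and 9.82%. With IL-12 replicate 1 left out, 0 rose against naive cells and 1 rose against IL-2 primed cells. Medians of the log2 difference were -0.69, -0.42 and -0.44, beside 0.04, 0.01 and 0.02 for all tested genes. Itgae, the alpha E integrin chain CD103 and a chain that is itself cut by convertases, read 5.51 and 5.57 with IL-12, 10.43 and 10.83 with IL-2 and 11.26 and 11.12 in naive cells. The readings were 34.1-fold lower in IL-12 primed than in IL-2 primed cells (limma adjusted p = 6.01e-07) and 50.4-fold lower than in naive cells (limma adjusted p = 4.02e-08). With IL-12 they were as low as those of Pcsk1, so these folds too may understate the difference. As for Pcsk1, the IL-12 arrays were the low ones. Igf1r, the receptor of insulin-like growth factor 1, had its highest values in IL-2 primed cells. It read 7.87 and 7.70 with IL-12, 9.83 and 9.92 with IL-2 and 8.25 and 8.22 in naive cells. It was 4.25-fold lower in IL-12 primed than in IL-2 primed cells (limma adjusted p = 1.32e-05) and 3.10-fold higher in IL-2 primed than in naive cells (limma adjusted p = 5.1e-06). Insr, the insulin receptor gene, fell against naive cells, by log2 differences of -1.31 with IL-12 and -0.74 with IL-2 (limma adjusted p = 2.75e-05 and 0.00124). Itga6 and Notch2 were lower in IL-12 primed than in IL-2 primed cells with log2 differences of -0.75 and -0.73 (limma adjusted p = 0.0013 and 0.00361). Notch1 fell against naive cells, by log2 differences of -0.85 with IL-12 and -1.02 with IL-2 (limma adjusted p = 0.000482 and 0.000278), and its difference of 0.17 between the primed groups did not pass (0.388). Sorl1, a sorting receptor with a convertase-cleaved propeptide, differed from naive cells by -2.43 with IL-12 (limma adjusted p = 2.28e-06).

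**Figure D4:**
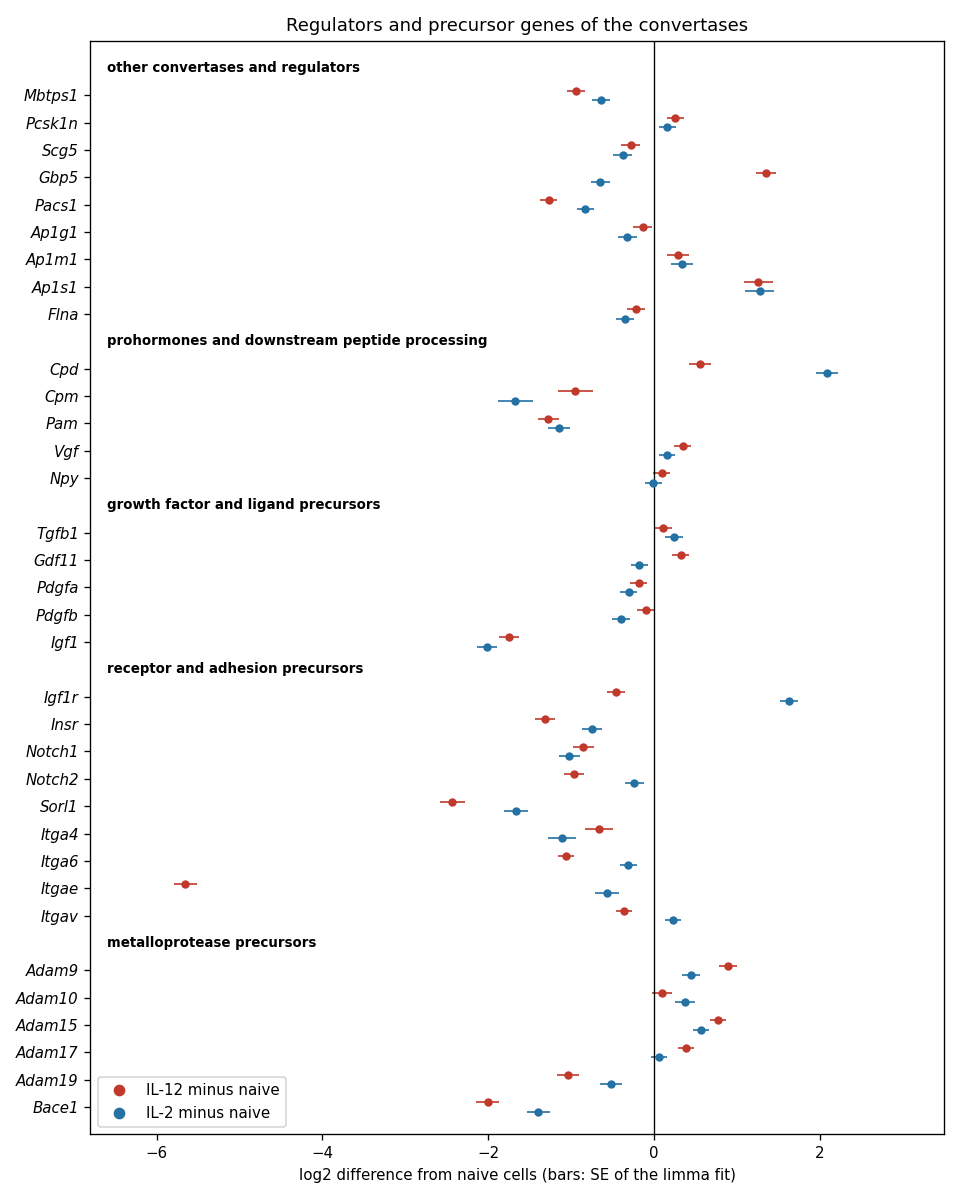
Log2 difference from naive cells (horizontal axis) of tested genes that regulate, act after or are cleaved by the convertases, for IL-12 primed (red) and IL-2 primed cells (blue). Points are fitted differences and bars their SE. Itgae lies at -5.66 with IL-12, and Gbp5 and Igf1r lie on opposite sides of 0 in the primed groups.

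The list of protease precursors held metalloproteases and the aspartic protease gene Bace1. Of 6 tested genes, 3 rose and 2 fell in IL-12 primed against naive cells, beside 31.2% of all tested genes higher and 26.7% lower. The genes that fell were Adam19 and Bace1. Adam15 rose by 0.78 ± 0.10 (limma adjusted p = 0.000181) and Adam9 by 0.90 ± 0.11 (limma adjusted p = 0.000152). The beta-secretase gene Bace1, whose propeptide furin removes, fell against naive cells, by log2 differences of -2.003 with IL-12 (limma adjusted p = 5.21e-06) and -1.40 with IL-2 (limma adjusted p = 7.08e-05). With IL-12 the readings of Bace1 lay below the Sry probe set. Adam19 differed from naive cells by -1.04 with IL-12 (limma adjusted p = 0.000182). Adam10 read from 10.39 to 10.87 over all arrays. It rose by 0.38 on the log2 scale in IL-2 primed against naive cells (limma adjusted p = 0.0282). That call was lost with quantile normalization (0.26, limma adjusted p = 0.0809) and without naive replicate 1 or either IL-2 array. Adam17, the enzyme that sheds tumour necrosis factor, read 10.37 and 10.43 with IL-12, 10.06 and 10.09 with IL-2 and 10.04 and 9.99 in naive cells. Its rise of 0.39 against naive cells (limma adjusted p = 0.0088) was lost without IL-12 replicate 2 (0.0657).

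Genes through which IL-12 acts on T cells were read as the setting of the Furin values. Of 10 tested genes of the IL-12 receptor and STAT4 pathway, 7 rose and 2 fell in the IL-12 primed cells against those primed with IL-2, beside 9.82% and 11.0% of all tested genes. The falls numbered 1 with IL-12 replicate 1 left out and 0 with any other 1 of the primed arrays left out. Stat4 itself, the known mediator of Furin induction, read 11.74 and 11.47 with IL-12, 12.10 and 12.09 with IL-2 and 11.94 and 11.86 in naive cells. The part of STAT4 in the Furin values was not tested, since the arrays measured RNA and not the activity of the protein. Stat4 RNA read lower with IL-12 than with IL-2. The log2 difference of -0.49 from IL-2 primed cells (limma adjusted p = 0.0194) did not pass when IL-2 replicate 1 (0.112), IL-2 replicate 2 (0.125) or else IL-12 replicate 2 (0.16) was left out. Il12rb2, the inducible receptor chain, read 12.30 and 12.17 with IL-12, 10.64 and 10.38 with IL-2 and 7.98 and 7.79 in naive cells. Unlike Furin, it was also higher in IL-2 primed than in naive cells, by 2.63 ± 0.13 on the log2 scale (limma adjusted p = 7.14e-07).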

How the data were processed

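Total RNA of 6 samples was hybridised to Affymetrix arrays, 1 per sample. The authors deposited 35556 probe set values on a log2 scale. RMA made them, per the submitters' processing notes. Its version and settings are not given in the sources used here, nor is a genome build. RMA brings the arrays to a like distribution, so a shift common to most genes may be hidden or reduced. The deposited distributions were not identical, with array medians from 6.78 (IL-12 replicate 2) to 6.95 (naive replicate 1). Values ran from 2.51 to 14.72. Of the probe sets, 21789 had 1 gene symbol in the platform annotation, which can be old, 1621 had several and 12146 were unlisted; 21698 of the first were renamed through the GRCm38.p6 gene table. Where a gene had several probe sets, the one highest on average stood for it. It was tested where at least 2 of 6 arrays exceeded the 50th percentile (6.83), which left 11147 genes.

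Groups came from the titles. Limma 3.58.1 in R 4.3.3 (lmFit, eBayes, 1 mean per group, all 6 arrays, two-sided) had 3 residual and 5.62 prior degrees of freedom, with Benjamini-Hochberg adjustment over all tested genes and a threshold of 0.05. The number of arrays limits the precision. The fit was tested on simulated data. The members and gene lists were chosen with earlier results of these data known. Genes named were all members, the regulators and up to 6 genes per other list with the smallest adjusted p. A fixed set of 15 and the 5 nearest patterns were also named. Not all of these are described with values above. Among those left out are Cpm, Vgf, Npy, Gdf11, Pdgfa, Pdgfb, Itga4, Itgav, Il12rb1, Ifng, Tbx21, Il18r1 and Il18rap. Chromosomal neighbours, Pomc, Lyz2, Itgam, Gzma and Ncr1 were added after the data were seen. Alternatives were other filters, probe set means, quantile normalization, median centring, trended robust eBayes, fits on compared groups, a replicate block and leaving out each array.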

Additional observations from a re-analysis of the deposited data

Results flagged for a closer look

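Gbp5 and Igf1r moved against naive cells in opposite directions in the 2 primed groups, each past the limma test, and the difference between the primed groups passed too. Gbp5 was higher in IL-12 primed cells by 1.35 ± 0.12 on the log2 scale (limma adjusted p = 2.06e-05) and lower in IL-2 primed cells (log2 difference -0.64 ± 0.12, limma adjusted p = 0.00238). Its difference between IL-12 primed and IL-2 primed cells was 1.99. Igf1r was lower in IL-12 primed cells (log2 difference -0.45 ± 0.11, limma adjusted p = 0.0058), which did not pass with IL-12 replicate 2 left out (0.0587), and higher in IL-2 primed cells by 1.63 ± 0.11 (limma adjusted p = 5.1e-06). Its difference between IL-12 primed and IL-2 primed cells was -2.09. Both comparisons with naive cells share the naive arrays.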

How the results depend on the processing

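Furin was higher in IL-12 primed than in naive cells under all 14 alternatives, by 2.64 to 2.87 on the log2 scale. Pcsk1 was lower, between -3.93 and -3.39. Several alternatives could not move these differences, because they left the IL-12 and naive values of both genes unchanged. They were other filters, probe set means, trended robust eBayes, fits on compared groups, a replicate block and leaving out an IL-2 array. Under these the differences stayed at 2.75 and -3.66. They moved only with quantile normalization, median centring or an IL-12 or naive array left out. Against IL-2 primed cells the differences ran from 2.66 to 2.89 for Furin and from -3.34 to -3.20 for Pcsk1. Fes was higher than in IL-2 primed cells by 1.77 to 1.998 (limma adjusted p up to 0.000469). With a filter at the 75th percentile, Furin and Pcsk1 were the only members tested. The number of genes passing between IL-12 primed and IL-2 primed cells was 2321, and 3533 when only these groups were fitted; without 1 array it ran from 737 to 3533. Without 1 array it ran from 3341 to 5786, beside 5095, for IL-2 primed and from 5081 to 6844, beside 6454, for IL-12 primed against naive cells. The lowest of these were reached without IL-2 replicate 2, IL-2 replicate 1 and IL-12 replicate 2. The split into higher and lower genes moved with scaling. For IL-2 primed against naive cells it was 2873 and 2222, but 3282 and 1561 with median centring and 2473 and 2878 with quantile normalization. For IL-12 primed against naive cells it was 3482 and 2972, but 4049 and 2278 with median centring and 3037 and 3539 with quantile normalization. No label says whether equally numbered arrays were paired. Their deviations from group means correlated across genes at 0.15 (IL-12 and IL-2), -0.02 (IL-12 and naive) and 0.02 (IL-2 and naive). With 2 arrays per group these values cannot settle whether they were. With the replicate number as a block, 2414, 6471 and 5128 genes passed for IL-12 against IL-2, IL-12 against naive and IL-2 against naive, and no member's call changed. Among 2019 recomputed differences of 49 other named genes, 91 lost and 32 gained a call, and none that was called changed sign.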
